A study of Mus musculus with 31 samples.

Results

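Cell cycle and proliferation genes were examined as a group of 42 genes in kidney RNA-seq of the Pcy/CD1 mouse, a slowly progressing model of polycystic kidney disease. The members were chosen by name and by the requirement of at least 10 counts in at least 5 mice. All 42 were found among the 23509 genes counted, and all 42 met that requirement, as 15285 genes did in all. Kidneys came from 31 mice. The authors describe the Pcy/CD1 mice as male and place the harvest of all animals at 30 weeks of age. The PBS group (n = 12) held Pcy/CD1 mice dosed with the PBS vehicle, weekly by their sample labels and monthly by the treatment protocol. The RGLS4326 group (n = 14) held Pcy/CD1 mice given the anti-miR-17 oligonucleotide RGLS4326 at 25 mg per kg, monthly, between 5 and 30 weeks of age. By the sample labels, these groups thus differ in dosing schedule as well as in drug. The WT group (n = 5) held untreated male CD1 mice without the Pcy defect, so these mice differed from PBS mice in vehicle dosing as well as in genotype. The Pcy/CD1 mice carry the inherited pcy defect in every cell, and whole kidney RNA was sequenced. In such bulk samples, fewer cells of a type and less RNA per cell cannot be told apart.

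A cell that divides passes through G1, copies its DNA in S phase and separates the copies in mitosis. D-type and E-type cyclins drive G1, the MCM2 to MCM7 ring is loaded on DNA and then unwinds it, and cyclin B with CDK1 starts mitosis, which the spindle checkpoint and kinesin motors then carry through. Most of these genes are silent in resting kidney tubules, and in resting cells the DREAM complex represses many of them. They are switched on together, the S phase genes mainly by E2F factors and the mitotic genes mainly by B-Myb and FOXM1. In polycystic kidneys, cyst-lining cells are known to proliferate, and so can immune cells and fibroblasts.

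The promoters of a mitotic member and of a pair of helicase members are shown because their motifs differ and because Mcm5 and Mcm6 went in opposite directions in these kidneys. Each run is the 250 bases before the RefSeq start, on build GRCm38.p6, read 5′ to 3′ on the gene's strand. Cdk1 lies at chr10:69352913-69353162 on the minus strand, Mcm5 at chr8:75109259-75109508 on the plus strand and Mcm6 at chr1:128359706-128359955 on the minus strand. Capitals mark motif matches.
Cdk1: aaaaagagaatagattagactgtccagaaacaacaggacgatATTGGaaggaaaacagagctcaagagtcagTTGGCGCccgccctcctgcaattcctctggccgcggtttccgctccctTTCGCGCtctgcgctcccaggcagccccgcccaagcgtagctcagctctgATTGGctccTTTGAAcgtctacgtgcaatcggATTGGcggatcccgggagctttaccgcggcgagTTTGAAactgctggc
Mcm5: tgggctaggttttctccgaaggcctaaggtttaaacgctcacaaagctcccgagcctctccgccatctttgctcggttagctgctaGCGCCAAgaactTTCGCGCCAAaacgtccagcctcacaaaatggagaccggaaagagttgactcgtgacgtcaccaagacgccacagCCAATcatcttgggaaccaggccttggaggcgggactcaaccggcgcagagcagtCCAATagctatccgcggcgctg
Mcm6: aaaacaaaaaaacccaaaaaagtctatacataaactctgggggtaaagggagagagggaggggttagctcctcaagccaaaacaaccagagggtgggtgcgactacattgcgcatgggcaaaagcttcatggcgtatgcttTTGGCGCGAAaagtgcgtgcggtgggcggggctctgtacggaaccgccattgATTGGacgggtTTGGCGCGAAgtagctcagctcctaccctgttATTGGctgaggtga
Motifs were searched on both strands and could overlap: the CHR element as TTTGAA and in its variant form TTCGAA, the CCAAT box as CCAAT, and an E2F core in 4 forms. These were TTCCCGC in the first form, TTGGCGC in the second form, TTCGCGC in the third form and TTGCCGC in the fourth form. The Cdk1 run held 2 CHR, 3 CCAAT and 2 E2F matches. The Mcm5 run held 2 CCAAT and 3 E2F matches, and the Mcm6 run 2 CCAAT and 4 E2F matches, with no CHR match in either.

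RefSeq promoters of 300 bases, 250 before and 50 after the start, matched 33 of the 42 members by symbol. Of the 9 mitotic kinase, cyclin and checkpoint genes with a promoter, 8 held a CHR match and 9 a CCAAT box, against 19.2% and 37.4% of all 32851 promoters. Of the 7 licensing and helicase genes, 6 held an E2F match, against 9.57% of all promoters. Of the 5 DNA synthesis and nucleotide genes, 2 held an E2F match, and the only G1 or S cyclin with a promoter held none. Over the 33 members with a promoter, 11 held an E2F match and 17 a CHR match. A CHR match with 2 or more CCAAT boxes stood in 11 member genes and in 2.31% of all promoters. These matches describe the sequence only.

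RGLS4326 is directed at miR-17, whose family shares a seed, bases 2 to 8 of the mature strand, shown in capitals (RefSeq, GRCm38.p6). 3 miRNAs are also shown because their genes lie in intron 13 of Mcm7, a member, on its strand.
miR-17-5p: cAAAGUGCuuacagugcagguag
miR-20a-5p: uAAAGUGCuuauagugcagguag
miR-93-5p: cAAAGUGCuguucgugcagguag
miR-106b-5p: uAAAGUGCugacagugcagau
miR-25-3p: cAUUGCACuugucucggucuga
The miR-93 strand lies at chr5:138165574-138165596, miR-106b at chr5:138165787-138165807 and miR-25 at chr5:138165332-138165353, all on the minus strand. miR-93 and miR-106b carry the miR-17 seed, and miR-25 another. Poly(A)-selected libraries do not measure mature miRNAs, so Mcm7 counts are those of the host messenger RNA.

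The match to the miR-17 seed, GCACTTT, stood in the longest annotated 3′UTR (GENCODE vM21, GRCm38) of 7 of the 42 members, or 16.7%, against 12.2% of 21124 protein-coding genes. Each site lay in the last exon and is shown with 10 bases on either side, the match in capitals.
Ccnd1: ccatttcaaaGCACTTTtggtcagcta
Ccnd2: cattagaaaaGCACTTTgaaaattttg
Kif23: aaaaaaaaatGCACTTTagacatattt
Mcm3: ccacccccagGCACTTTagtccaggaa
Mcm7: ctcccatgctGCACTTTtttattctgc
Rrm2: aataaaattgGCACTTTgcacacacac
Foxm1: ggacggggttGCACTTTgcttctgctt
The matches of Mcm3 (chr1:20803166-20803172) and Kif23 (chr9:61917436-61917442) were followed by an A. Those of Mcm7 (chr5:138164631-138164637), Ccnd1 (chr7:144931676-144931682), Ccnd2 (chr6:127129340-127129346), Rrm2 (chr12:24713640-24713646) and Foxm1 (chr6:128374371-128374377) were not.

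Depth ranged from 14892524 to 27459962 counts on genes in a mouse. Levels are given as CPM, the usual depth-scaled unit, in which each count is divided by its library's total after edgeR's TMM scaling. Fold changes come from 1 edgeR quasi-likelihood model of all 31 mice, with adjusted p-values by Benjamini-Hochberg over all 15185 genes tested. A gene is said to have risen or fallen where its adjusted p was under 0.05. All 42 members were tested. The S number in the library names starts again at intervals inside every group, which gave 3 index series. No label says what they are. The fold changes carry no term for them, and values within each series are given separately. WT mice 3 and 4 were the only WT mice of index series 2 and were closer to each other than any other WT pair, with a mean chi-square per gene of 2.69 against 16 to 22.6, and of 0.81 over the members. The labels give them as separate mice and they were counted so. Whether they came from separate kidneys was not tested. Without WT mouse 3 or without WT mouse 4, 36 members rose and 1 fell in PBS mice in place of 37 and 1.

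The library labelled RGLS4326 9 stood apart from the other 13 RGLS4326 libraries. For Gm8615, a predicted gene named here after its values were seen, it read 89.6 CPM. Gm8615 read 84.6 to 98.6 CPM in WT mice and at most 0.494 CPM in every other library labelled as Pcy/CD1. The library lay within the WT range for 31 of 42 members, against 60.1% of all genes tested. It was the lowest RGLS4326 library for 25 of 42 members, against 26.2% of all genes. RGLS4326 ranges and fold changes include this library unless a value is said to leave it out.

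Whether dividing-cell genes were raised in untreated disease was asked by comparing PBS with WT mice. Of the 42 members, 37 rose, 1 fell and 4 did neither. Among all genes tested, 37.7% rose and 36.6% fell. With a log2 fold change over 0.5 required as well, 34 members rose, against 24.6% of all genes. The median log2 fold change of the members was 1.19, against 0.01 over all genes. Every PBS mouse lay above every WT mouse for 26 members, against 20.3% of all genes, and every PBS mouse lay below every WT mouse for 1 member, Mcm6, against 21.9%.

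The general proliferation markers Mki67 and Top2a rose 3.95-fold and 4.25-fold. Mki67 (chr7:135689784-135716361) encodes the Ki-67 protein that coats mitotic chromosomes. It read 2.54, 2.91, 7.57, 6.78 and 2.83 CPM in WT mice 1 to 5, 11.8 to 28.6 CPM with PBS (median 17) and 5.72 to 20.3 CPM with RGLS4326 (median 14.2). WT mice 3 and 4 were the highest of their group, and no PBS mouse reached as low as either. The log2 fold change of PBS against WT was 1.98 (standard error 0.27, edgeR adjusted p = 2.31e-07). Top2a (chr11:98992943-99024189), topoisomerase IIα, which untangles replicated DNA, read 1.71, 1.72, 4.97, 3.93 and 2.47 CPM in WT, 7.82 to 22 CPM with PBS (median 12.3) and 2.91 to 14.3 CPM with RGLS4326 (median 9.27). In PBS mice its log2 fold change was 2.09 (standard error 0.29, edgeR adjusted p = 3.2e-07). Of the 37 members that rose, 22 were higher in both WT mice 3 and 4 than in the other WT mice. The same count was not made over all genes, over which mice 3 and 4 were also the closest WT pair.

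**Figure D1:**
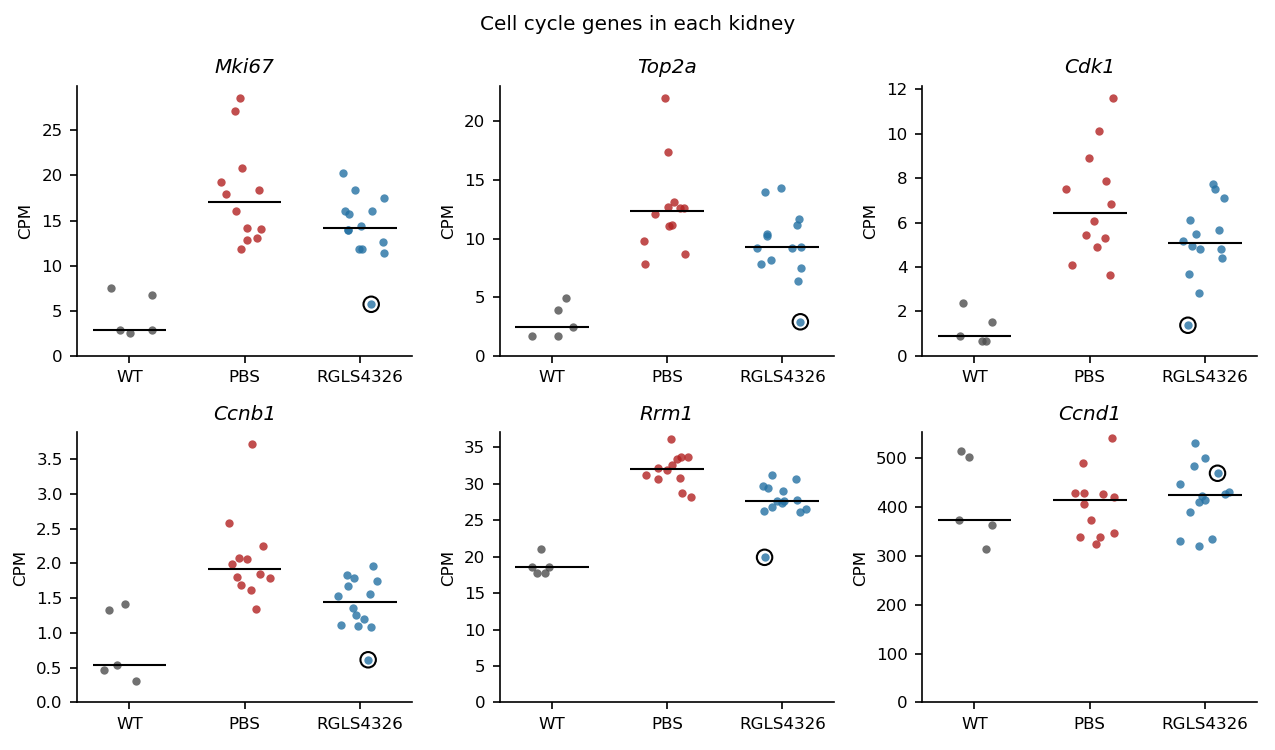
Level in CPM (linear axis from 0) of 6 cell cycle genes in each WT (n = 5), PBS (n = 12) and RGLS4326 (n = 14) kidney. Points are mice, bars are group medians and the open circle marks the library labelled RGLS4326 9. For Mki67, Top2a, Cdk1 and Rrm1 every PBS point lies above every WT point, while the Ccnd1 groups overlap, with medians of 414 CPM with PBS and 424 CPM with RGLS4326.

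All 10 mitotic kinases, cyclins and checkpoint genes rose in PBS mice, with a median log2 fold change of 1.90. Cdk1 (chr10:69335146-69352938), the kinase that starts mitosis, read 0.649, 0.653, 1.54, 2.36 and 0.903 CPM in WT, 3.66 to 11.6 CPM with PBS (median 6.45) and 1.38 to 7.73 CPM with RGLS4326 (median 5.06). Its log2 fold change of 2.49 (standard error 0.35, edgeR adjusted p = 3.69e-07) was the largest of this role. Among its cyclin partners, Ccnb2 read 0.531, 1.07, 1.95, 1.82 and 0.903 CPM in WT, 2.93 to 8.03 CPM with PBS (median 4.01) and 1.38 to 4.34 CPM with RGLS4326 (median 3.30). It rose by 1.83 (standard error 0.28, edgeR adjusted p = 1.41e-06) in PBS mice.

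Ccnb1 (chr13:100778650-100786570), the other B-type cyclin, read 0.472, 0.534, 1.42, 1.33 and 0.301 CPM in WT and 1.35 to 3.71 CPM with PBS (median 1.92). In this case 11 of 12 PBS mice lay above every WT mouse. Its log2 fold change was 1.34 (standard error 0.28), with the largest p of this role (edgeR adjusted p = 9.37e-05). The checkpoint kinases Ttk, Bub1 and Bub1b, which hold back anaphase until chromosomes are attached, rose by 2.27, 2.12 and 1.97. Ttk rested on 1 to 6 counts per WT mouse and 10 to 30 per PBS mouse. The aurora kinases differed in size, with Aurkb at 2.07 and Aurka at 1.33, and Plk1 rose by 1.26. Cdc20, the activator of the anaphase-promoting complex, had the smallest rise of this role, at 1.03 (standard error 0.21, edgeR adjusted p = 9.02e-05). Bub1b had the smallest p of the role (edgeR adjusted p = 2.39e-07), and read 0.472, 0.534, 1.06, 0.666 and 0.542 CPM in WT, 1.95 to 3.66 CPM with PBS (median 2.55) and 0.664 to 3.05 CPM with RGLS4326 (median 2.19).

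Of the 10 centromere, spindle and cytokinesis genes, 9 rose, with a median over all 10 of 1.41. Cenpf, a kinetochore protein of G2 and mitosis, had the largest log2 fold change of all members, 2.62 (standard error 0.36, edgeR adjusted p = 2.58e-07). It went from 0.472, 0.297, 1.01, 1.21 and 0.602 CPM in WT to 3.19 to 7.06 CPM with PBS (median 4.21). The spindle assembly factor Tpx2 had the smallest p of the role (log2 fold change 2.25, standard error 0.28, edgeR adjusted p = 6.31e-08). It read 0.943, 0.534, 1.42, 1.82 and 0.783 CPM in WT and 3.32 to 8.68 CPM with PBS (median 4.68). Rises followed for Prc1 (1.93), which bundles midzone microtubules, Nusap1 (1.47), Kif20a (1.42), Birc5 (1.40), which encodes survivin, Cenpa (1.12), the centromeric histone H3, Kif23 (0.97) and Kif11 (0.75). The kinetochore motor Cenpe was the exception. It read 3.42, 4.75, 4.91, 4.30 and 3.31 CPM in WT and 3.90 to 6.26 CPM with PBS (median 4.34), a log2 difference of 0.14 (standard error 0.13, edgeR adjusted p = 0.319).

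Among 8 licensing and helicase genes, 7 rose and 1 fell, with a median of 0.64. Cdc6 and Cdt1, which load the MCM ring on origins, rose by 1.27 and 0.57. Cdt1 had the largest p of the role (edgeR adjusted p = 6.9e-05). It read 6.01, 6.23, 7.81, 7.75 and 7.16 CPM in WT, 8.32 to 13 CPM with PBS (median 10.3) and 6.23 to 10.1 CPM with RGLS4326 (median 8.31).

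The 6 subunits of the MCM ring did not move together. Mcm3 had the largest rise among them and the smallest p of the role, from 3.83, 3.62, 6.45, 5.57 and 6.08 CPM in WT to 9.89 to 19.6 CPM with PBS (median 13.7), a log2 fold change of 1.48 (standard error 0.20, edgeR adjusted p = 1.74e-07). Mcm5 read 5.19, 4.39, 6.86, 5.69 and 7.16 CPM in WT and 6.63 to 17.2 CPM with PBS (median 11.5), a rise of 0.99 (standard error 0.18). For Mcm3 12 of 12 PBS mice, and for Mcm5 11 of 12, lay above every WT mouse. Mcm7 (chr5:138164583-138172422) went from 24.5, 23.0, 25.7, 25.2 and 23.8 CPM to 30.7 to 48.6 CPM (median 37.3), a rise of 0.65 (standard error 0.11). Mcm2 went from 12.3, 10.7, 14.1, 14.2 and 14.3 CPM to 15 to 25.9 CPM (median 20.1), a rise of 0.62 (standard error 0.11). Mcm4 went from 7.96, 9.68, 9.99, 9.99 and 11.4 CPM to 11.7 to 16.6 CPM (median 15.2), a rise of 0.60 (standard error 0.083). For these 3 subunits every PBS mouse lay above every WT mouse.

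Mcm6 (chr1:128331590-128359664, minus strand, GENCODE vM21) went the other way. It read 29.7, 33.2, 31.8, 34.1 and 34.1 CPM in WT, which per kilobase of exon was the highest of the 6 subunits (6.98 CPM per kb, against 5.52 for Mcm7). With PBS it read 5.93 to 16 CPM (median 9.72). Among RGLS4326 mice it read 4 to 10.3 CPM in 13 mice and 33.1 CPM in the library labelled RGLS4326 9. All 12 PBS mice thus lay below every WT mouse, and the single RGLS4326 library inside the WT range was number 9. The log2 fold change was −1.61 for PBS against WT (standard error 0.28, edgeR adjusted p = 6.86e-06). For RGLS4326 against WT it was −1.76 (standard error 0.27, edgeR adjusted p = 3.21e-06), and −2.06 (standard error 0.17) without that library. Within index series 1, 2 and 3 the PBS difference was −1.70, −1.67 and −1.49, with edgeR adjusted p = 0.000729 and 0.0522 in series 1 and 2. Series 3 held 1 WT mouse, so only its difference is given. Series 2 holds the library labelled RGLS4326 9, and without it the difference was −1.68 (standard error 0.28 in place of 0.64, edgeR adjusted p = 0.000968). No other annotated protein-coding gene shares exon bases with Mcm6.

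**Figure D2:**
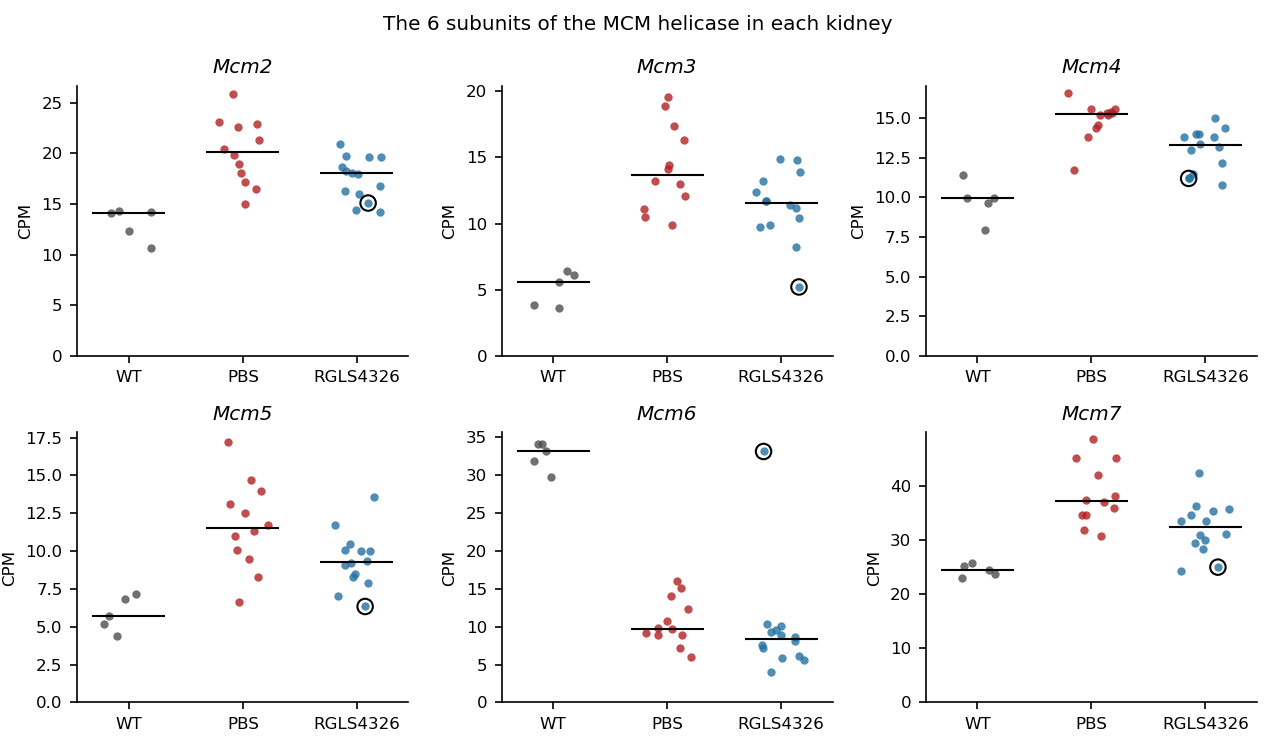
Level in CPM (linear axis from 0) of Mcm2 to Mcm7 in each WT, PBS and RGLS4326 kidney, with points for mice, bars for medians and an open circle for the library labelled RGLS4326 9. Mcm6 is the only subunit with PBS below WT, at a median of 9.72 CPM against 29.7 to 34.1 CPM, and the circled library sits with the WT mice in that panel.

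Of the 5 DNA synthesis and nucleotide genes, 4 rose, with a median of 0.39. Ribonucleotide reductase makes deoxynucleotides, and its subunits Rrm2 and Rrm1 rose by 0.85 and 0.77. Rrm1 (chr7:102441695-102469771) had the smallest p of any member (standard error 0.071, edgeR adjusted p = 1.46e-09), from 18.6, 17.7, 18.6, 17.7 and 21.1 CPM in WT to 28.2 to 36.1 CPM with PBS (median 32). Tyms, thymidylate synthase, rose by 0.39 (edgeR adjusted p = 0.00715), and Pcna, the sliding clamp, by 0.25 (edgeR adjusted p = 0.00131). Tk1, the S phase thymidine kinase, read 20.5, 16.9, 23.6, 24.7 and 17.3 CPM in WT and 12.7 to 24.6 CPM with PBS (median 20.2), and its log2 difference was −0.06 (standard error 0.12, edgeR adjusted p = 0.633). Tk1 shares 83 exon bases with Afmid on the opposite strand, and Afmid fell by 1.19 on the log2 scale. Whether counting used strand is not given in the sources used here, and the part of Afmid in the Tk1 value was not tested. In all, 9 of 42 members share exon bases with a protein-coding gene on the opposite strand. Among other members that neither rose nor fell, Ccnd1 shares 1100 such bases with LTO1, and Ccne2 shares 609 with Ints8. The part of LTO1 and Ints8 in the Ccnd1 and Ccne2 values was not tested.

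The cyclins of G1 and S phase were split, with 3 of 5 raised. Ccna2, the S and G2 cyclin, went from 1, 1.01, 2.90, 2.60 and 1.63 CPM in WT to 3.94 to 9.44 CPM with PBS (median 5.22), a rise of 1.59 (standard error 0.23, edgeR adjusted p = 4.83e-07). Ccne1 read 1.18, 0.238, 0.591, 0.605 and 0.662 CPM in WT and 0.638 to 2.77 CPM with PBS (median 1.36), a rise of 1.09 (standard error 0.33, edgeR adjusted p = 0.00383) with 7 of 12 PBS mice above every WT mouse. Ccnd2 went from 12.6, 11.8, 14.3, 14.3 and 11.9 CPM to 15 to 27.9 CPM (median 21.0), a rise of 0.70 (standard error 0.14, edgeR adjusted p = 3.48e-05). For Ccnd2 all 12 PBS mice and all 14 RGLS4326 mice lay above every WT mouse.

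Ccnd1, cyclin D1, was by far the most abundant member per length, at 87.9 CPM per kb of exon in WT and 86.0 CPM per kb with PBS, with Pcna next at 8.64 and 10.3 CPM per kb. It read 313, 373, 503, 515 and 364 CPM in WT and 324 to 541 CPM with PBS (median 414). The log2 difference was −0.03 (standard error 0.12, edgeR adjusted p = 0.831), and the groups overlapped throughout. Scaling by total counts only, under which the median of all genes was 0.38, gave 0.33 for Ccnd1 and 0.30 for Tk1 (edgeR adjusted p = 0.00859 and 0.024). Ccne2 read 0.413, 0.772, 0.769, 0.605 and 0.421 CPM in WT and 0.170 to 1.08 CPM with PBS (median 0.704), a log2 difference of 0.19 (standard error 0.30, edgeR adjusted p = 0.581). Foxm1, which drives G2 and mitotic genes, rose by 1.43 (standard error 0.26, edgeR adjusted p = 1.57e-05), from 1.71, 1.72, 1.95, 2.42 and 2.53 CPM in WT to 3.89 to 8.92 CPM with PBS (median 4.81). Mybl2, B-Myb, rose by 0.37 (standard error 0.14, edgeR adjusted p = 0.021), from 2.30, 2.26, 2.13, 2.12 and 2.71 CPM to 1.81 to 4.08 CPM (median 2.93), with 9 of 12 PBS mice above every WT mouse.

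**Figure D3:**
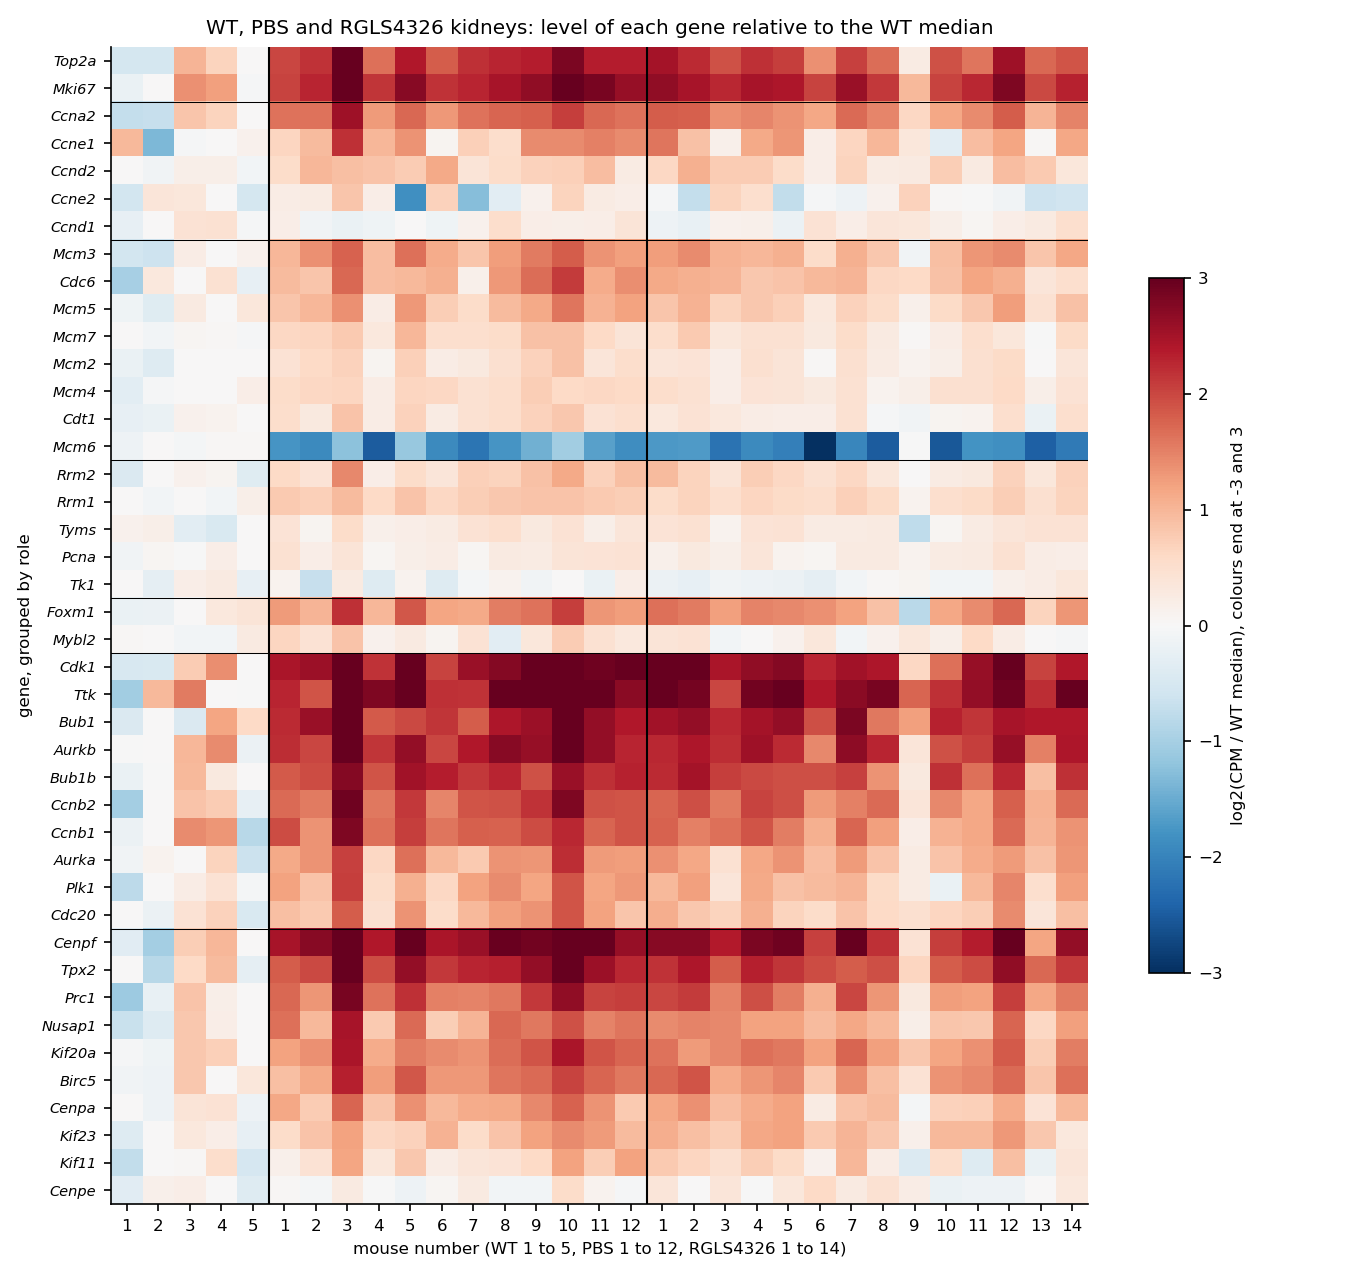
Log2 ratio of each member's CPM to its WT median, for WT mice 1 to 5, PBS mice 1 to 12 and RGLS4326 mice 1 to 14, with genes grouped by role and colours ending at -3 and 3. Mitotic genes are raised most widely, Mcm6 is the blue row, and RGLS4326 column 9 is the palest of its group, the lowest of it for 25 of 42 members.

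The size of the rise differed among PBS mice and the same few mice were high for most members. PBS mouse 3 was the highest of its group for 23 of 42 members and PBS mouse 10 for 14. PBS mouse 4 was the lowest for 17. Among RGLS4326 mice, number 12 was the highest for 17 members and number 9 the lowest for 25. Except for number 9, these counts were not made over all genes. Whether the pattern is particular to the members was not tested. Mean log2(CPM + 1) over the 42 members ran from 2.68 to 3.44 in PBS mice, from 2.31 to 3.06 in RGLS4326 mice and from 2.01 to 2.41 in WT mice.

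Within each index series most members stayed higher in PBS than in WT mice, with median log2 fold changes of 1.30, 0.76 and 1.48 in series 1, 2 and 3. The estimate was above 0 for 41, 37 and 41 of 42 members, and Mcm6 was lower in each series. In series 1 and 2, 33 and 24 members rose, against 26.3% and 23.4% of all genes tested there. Series 2 with the library labelled RGLS4326 9 left out, a choice made after seeing the data, gave 29 members higher and 1 lower. The WT mice of series 2 were mice 3 and 4. Series 3 held 1 WT mouse, which is assumed to vary like the other groups, so its calls are not counted here.

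Whether RGLS4326 changed these genes was asked by comparing RGLS4326 with PBS mice, the same PBS mice as above. No member rose by edgeR's test, by DESeq2 or at an unadjusted p under 0.05, whereas 9.15% of all genes tested rose by edgeR's test, and 5 members fell, namely Ccnb1, Mcm4, Mcm7, Rrm1 and Cdt1, whereas 6.66% of all genes tested fell. With a log2 fold change under −0.5 required as well, 1 member, Ccnb1, fell, against 1.22% of all genes. At an unadjusted p under 0.05, 22 members were lower, against 17.2% of all genes. The count was again 5 without the library labelled RGLS4326 9, with Mcm6 in place of Ccnb1, and 4.66% of all genes rose and 3.48% fell. Scaling by total counts only gave 24 members lower (551 genes higher and 4130 lower over all, in place of 1390 and 1012), and DESeq2 gave 9 (1876 and 1327). The estimate was below 0 for 39 of 42 members, against 51.1% of all genes, and the members' median was −0.31.

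Ccnb1 read 0.613 to 1.96 CPM with RGLS4326 (median 1.44), against 1.35 to 3.71 CPM with PBS (median 1.92). Of 14 RGLS4326 mice, 13 lay below the PBS median, and the groups overlapped. The log2 fold change was −0.53 (standard error 0.18, edgeR adjusted p = 0.0447). Without the library labelled RGLS4326 9 it was −0.47 (standard error 0.17), which did not pass the threshold (edgeR adjusted p = 0.0682), and the lowest RGLS4326 value was 1.08 CPM.

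Rrm1 read 19.9 to 31.2 CPM with RGLS4326 (median 27.6), and all 14 mice lay below the PBS median of 32 CPM. It fell by 0.21 on the log2 scale (standard error 0.050, edgeR adjusted p = 0.012), and by 0.18 (standard error 0.040, edgeR adjusted p = 0.0114) without the library labelled RGLS4326 9, whose 19.9 CPM was the lowest value, the next being 26.1 CPM. Cdt1 read 6.23 to 10.1 CPM, with all 14 mice below the PBS median of 10.3 CPM. It fell by 0.31 (standard error 0.082, edgeR adjusted p = 0.0213), and by 0.28 (edgeR adjusted p = 0.0348) without that library. Both genes overlapped the PBS range.

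Among the MCM subunits, Mcm4 read 10.8 to 15 CPM with RGLS4326 (median 13.3) and fell by 0.20 (standard error 0.059, edgeR adjusted p = 0.0283). Mcm7, the host of miR-25, miR-93 and miR-106b, read 24.3 to 42.4 CPM (median 32.3) and fell by 0.25 (standard error 0.075, edgeR adjusted p = 0.0283). Without the library labelled RGLS4326 9 the falls were 0.18 (edgeR adjusted p = 0.0482) and 0.23 (edgeR adjusted p = 0.0476). Mcm2, Mcm3 and Mcm5 had log2 differences of −0.20, −0.33 and −0.31, with medians of 18.1, 11.5 and 9.28 CPM, and did not pass (edgeR adjusted p = 0.0656, 0.0735 and 0.068). Mcm6 had a log2 difference of −0.15 (standard error 0.22, edgeR adjusted p = 0.637) with all mice. Without the library labelled RGLS4326 9, which alone read 33.1 CPM, it fell by 0.45 (standard error 0.14, edgeR adjusted p = 0.0464).

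Mki67, Top2a and Cdk1 did not pass the adjustment. Mki67 had a log2 difference of −0.32 (standard error 0.17, edgeR adjusted p = 0.169), Top2a of −0.41 (standard error 0.18, edgeR adjusted p = 0.101) and Cdk1 of −0.42 (standard error 0.21, edgeR adjusted p = 0.139). Of 14 RGLS4326 mice, 11, 12 and 11 lay below the PBS median. Without the library labelled RGLS4326 9, these differences were −0.26, −0.34 and −0.34, and the lowest RGLS4326 values were 11.4, 6.4 and 2.83 CPM in place of 5.72, 2.91 and 1.38 CPM. Ccnb2 came close to the threshold, at −0.49 (standard error 0.18, edgeR adjusted p = 0.0526). The G1 and S cyclins Ccnd1, Ccnd2, Ccna2, Ccne1 and Ccne2 had differences of 0.06, −0.13, −0.32, −0.36 and −0.16, with RGLS4326 medians of 424, 19.8, 4.42, 1.13 and 0.586 CPM and edgeR adjusted p = 0.654, 0.300, 0.11, 0.217 and 0.599. None of these 5 cyclins passed the test.

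**Figure D4:**
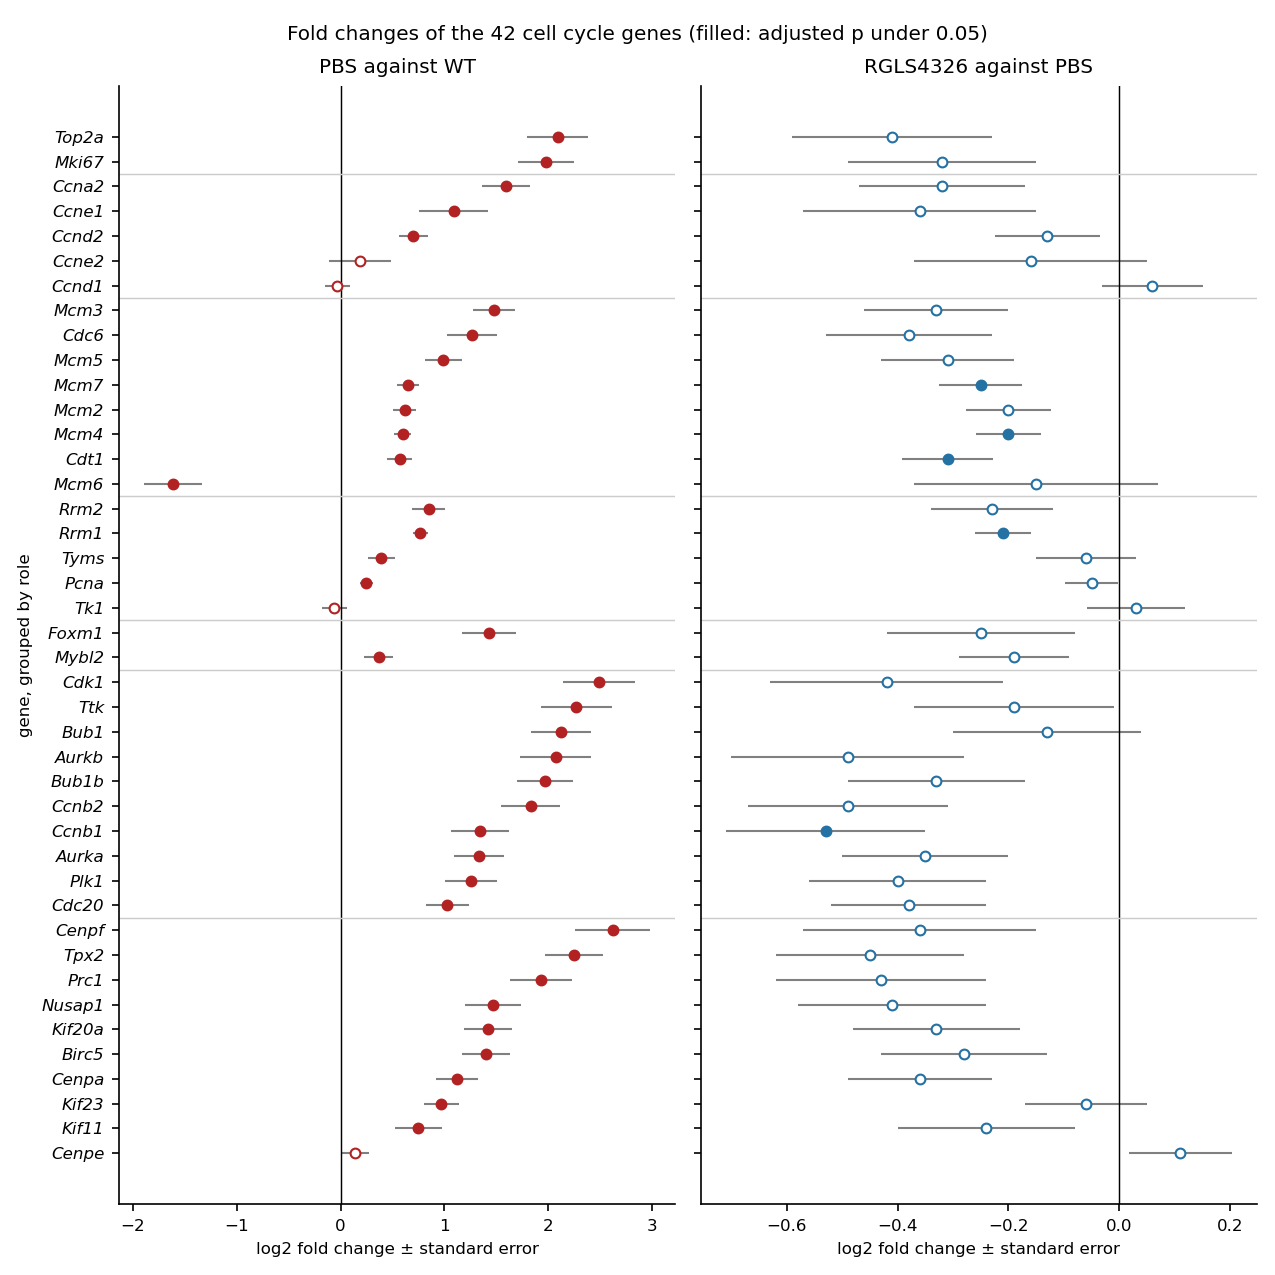
Log2 fold change with its standard error for each of the 42 members, grouped by role, for PBS against WT on the left and RGLS4326 against PBS on the right, which share the PBS mice and have different horizontal scales. Filled points have an adjusted p under 0.05, 38 on the left and 5 on the right, and the right panel spans −0.53 for Ccnb1 to 0.11 for Cenpe.

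The number of treatment calls moved with single mice, among the members and over all genes, of which 1012 fell with all mice. Without PBS mouse 10, 1 member fell (Rrm1), and 250 of all genes. Without PBS mouse 3, 5 or 9 or RGLS4326 mouse 8, 2 members fell each (Cdt1 and Rrm1), and 388, 333, 358 and 412 of all genes. Without RGLS4326 mouse 13, 3 members and 459 of all genes fell. Without PBS mouse 4, 14 members and 1659 of all genes fell. Without PBS mouse 6, 7 or 12, 8, 10 and 8 members fell, and 990, 1249 and 1398 of all genes. Without RGLS4326 mouse 2 or 12, 10 and 11 members fell, and 1802 and 1149 of all genes. Rrm1 fell in each of these models. At an unadjusted p under 0.05, 13 members passed without PBS mouse 3 or PBS mouse 10 in place of 22, with 4808 and 4529 genes in place of 5595. Without PBS mouse 4, 26 members and 6246 genes passed at that unadjusted p. Over 43 alternative models, Rrm1 passed in 38, Cdt1 in 37, Mcm7 in 33, Mcm4 in 32 and Ccnb1 in 24. Their edgeR or DESeq2 adjusted p ranged from 0.0022, 0.00723, 0.00893, 0.00744 and 0.0203 up to 1, and that of Mcm6 from 0.0464 up to 1. Within index series 1, 2 and 3 the members' median was −0.09, −0.30 and −0.43, and no member or other gene passed the adjustment in any of them. At an unadjusted p under 0.05, these series gave 280, 2981 and 3045 genes, 0, 9 and 24 of them members. Leaving the library labelled RGLS4326 9 out of series 2 gave a members' median of −0.19, 6 members and 2242 genes at that unadjusted p, and none after adjustment.

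For the 7 members with a miR-17 seed match, the log2 differences of RGLS4326 against PBS were 0.06 for Ccnd1, −0.13 for Ccnd2, −0.06 for Kif23, −0.33 for Mcm3, −0.25 for Mcm7, −0.23 for Rrm2 and −0.25 for Foxm1. None of the 7 rose, and Mcm7 fell, beside 9.15% and 6.66% of all genes tested. Whether genes with a seed match moved as a set was not tested.

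RGLS4326 mice were also set beside WT mice. Of the 42 members, 34 rose and 1, Mcm6, fell, against 32.5% and 32.4% of all genes tested, with a member median of 0.83. Without the library labelled RGLS4326 9, 36 rose, 1 fell and the median was 0.89. Every RGLS4326 mouse lay above every WT mouse for 3 members, Ccnd2, Bub1 and Ttk, against 5.04% of all genes. Leaving library 9 aside, this held for 17 members, against 16.2% of all genes. Mki67 stayed at a log2 fold change of 1.66 (standard error 0.27, edgeR adjusted p = 6.08e-06), Top2a at 1.68 and Cdk1 at 2.07 above WT.

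Other cell cycle genes were described from 5 lists of 96 genes, all tested. Of these, 65 rose and 12 fell in PBS mice, beside the 37.7% and 36.6% of all genes. With RGLS4326, 5 rose and 18 fell, beside 9.15% and 6.66% of all genes, and without the library labelled RGLS4326 9 it was 3 and 7, with 706 and 528 of all genes in place of 1390 and 1012. Of 7 CDK inhibitors, the brakes of the cycle, 4 rose in PBS mice and none fell. Cdkn1a, p21, read 4.36 to 7.16 CPM in WT, 19.7 to 52.3 CPM with PBS (median 27.4) and 5.06 to 35.3 CPM with RGLS4326 (median 25.7), and rose by 2.49 (standard error 0.33, edgeR adjusted p = 1.6e-07) in PBS mice. Its treatment difference was −0.48 (edgeR adjusted p = 0.0871). The lowest RGLS4326 value was 15.8 CPM and the difference −0.40 (edgeR adjusted p = 0.105) without the library labelled RGLS4326 9.

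Cdkn2a, which encodes p16 and p19ARF, had 0 to 2 counts per WT mouse, 19 to 115 per PBS mouse and 1 to 57 per RGLS4326 mouse. It rose in PBS mice (edgeR adjusted p = 2.17e-06). From a median of 2.27 CPM with PBS it stood at 1.2 CPM with RGLS4326 and fell by 1.09 on the log2 scale (standard error 0.34, edgeR adjusted p = 0.0339), the only inhibitor to pass in that comparison. It fell by 0.99 (edgeR adjusted p = 0.0451) without the library labelled RGLS4326 9. Cdkn2b, p15, rose by 1.37 in PBS mice and had a treatment difference of −0.55 (edgeR adjusted p = 0.0533). Cdkn2d rose by 0.51. Cdkn1b, Cdkn1c and Cdkn2c had differences of −0.09, 0.32 and 0.18 in PBS mice and did not pass (edgeR adjusted p = 0.21, 0.0543 and 0.10).

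**Figure D5:**
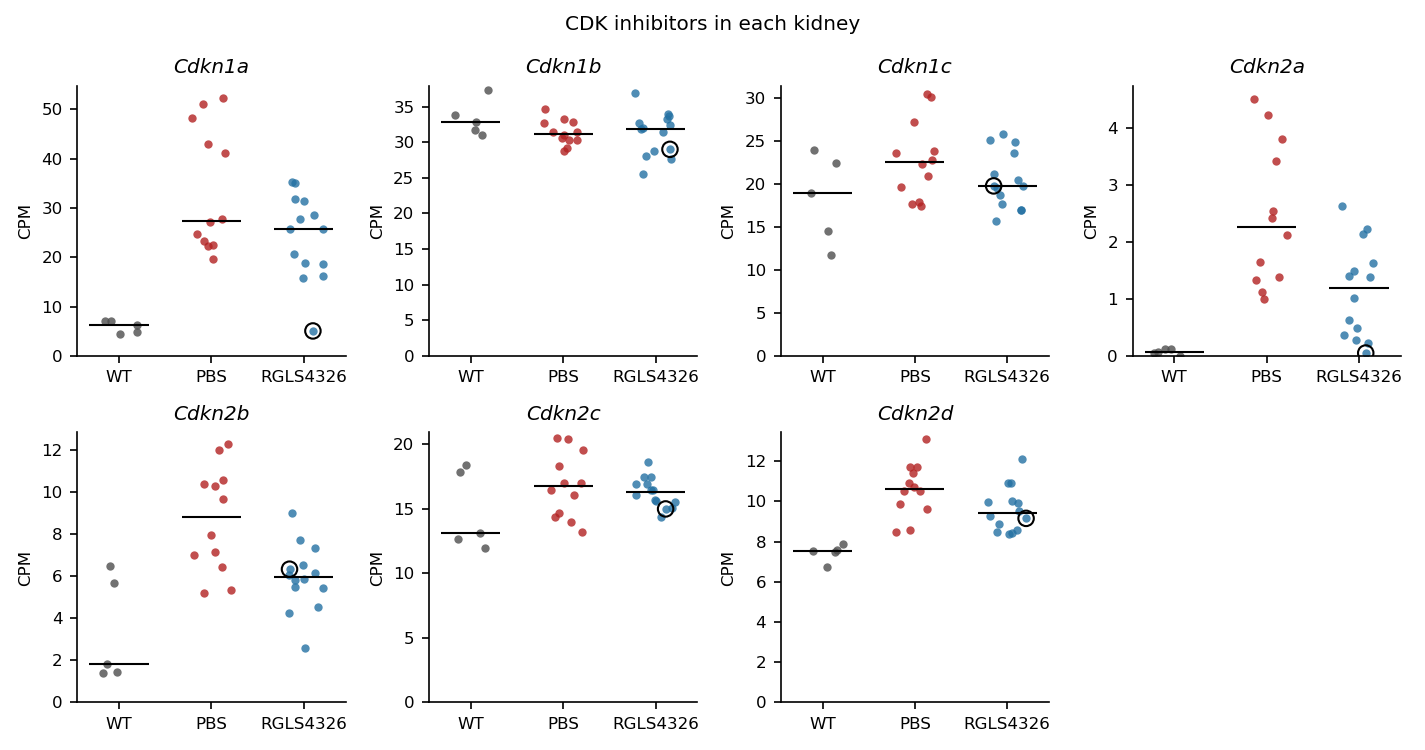
Level in CPM (linear axis from 0) of 7 CDK inhibitors in each WT, PBS and RGLS4326 kidney, with points for mice, bars for medians and an open circle for the library labelled RGLS4326 9. Cdkn1a and Cdkn2a show every PBS mouse above every WT mouse, and the Cdkn1b groups overlap at 25.5 to 37.3 CPM.

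In the RB and E2F network, 5 of 19 genes rose and 8 fell in PBS mice, beside the 37.7% and 36.6% of all genes, and 3 rose and 1 fell with RGLS4326. The genes with the smallest p were Rbl2, the pocket protein p130, which fell by 0.62, Lin54, a DNA-binding subunit of the DREAM complex, which fell by 0.77, and E2f8, an atypical repressor, which rose by 2.01. Rb1 fell by 0.49 in PBS mice and rose by 0.25 with RGLS4326 (edgeR adjusted p = 0.0213). In treatment, E2f2 fell by 0.35 (edgeR adjusted p = 0.0115) and E2f5 rose by 0.17 (edgeR adjusted p = 0.0213). Among 13 other G1 and checkpoint genes, 8 rose and 1 fell in PBS mice. Cdc25b, a phosphatase that activates CDK1, rose by 1.45 and fell by 0.33 with RGLS4326, and Cdk2 and Cdk4 rose by 0.62 and 0.61 and each fell by 0.21 with RGLS4326. Wee1, the kinase that restrains CDK1, was the gene that fell, by 0.80, and it rose by 0.33 with RGLS4326 (edgeR adjusted p = 0.0296).

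Of 27 other replication genes, 22 rose and 2 fell in PBS mice, and 1 rose and 7 fell with RGLS4326, or 0 and 3 without the library labelled RGLS4326 9. Lig1, the ligase that joins Okazaki fragments, rose by 1.43 and fell by 0.39 with RGLS4326. Cdc7 rose by 1.67, Uhrf1 rose by 2.02 and fell by 0.56 with RGLS4326, Prim1, a primase subunit, rose by 0.51 and fell by 0.24, and Chaf1a, of chromatin assembly factor 1, rose by 0.99 and fell by 0.37. Of 30 other mitosis genes, 26 rose and 1 fell in PBS mice, and none rose and 5 fell with RGLS4326, or 0 and 1 without that library. Nuf2, of the kinetochore, rose by 2.51 and fell by 0.50 with RGLS4326, Kif2c rose by 2.50 and fell by 0.53, and Racgap1, of the central spindle, rose by 1.59 and fell by 0.38. Ckap2l rose by 2.30, and Stmn1 rose by 0.41 and fell by 0.22. All these falls with RGLS4326 are relative to the same PBS mice. Without the library labelled RGLS4326 9, 13 of the 23 calls among the 96 genes were lost, 7 of them of genes named here. Their log2 differences were then −0.28 for Cdc25b, −0.19 for Cdk4, −0.49 for Uhrf1, −0.43 for Nuf2, −0.46 for Kif2c, −0.32 for Racgap1 and 0.27 for Wee1, with edgeR adjusted p of 0.0555, 0.0572, 0.0579, 0.0582, 0.0668, 0.0679 and 0.0514. E2f2, E2f5, Rb1, Cdk2, Lig1, Prim1, Chaf1a and Stmn1 still passed.

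Markers of other cell types moved in the same comparison. The summed level of 5 T cell genes was 2.83 to 6.08 CPM in WT, 23.2 to 34.9 CPM with PBS and 4.96 to 32 CPM with RGLS4326, and 5 of 5 rose in PBS mice. For macrophages 5 of 5 genes tested rose, with sums of 171 to 197 CPM in WT, 417 to 700 CPM with PBS and 176 to 818 CPM with RGLS4326. Of 5 fibroblast and pericyte genes 4 rose, with sums of 112 to 180, 488 to 1018 and 176 to 1047 CPM. Of 5 B and plasma cell genes 4 rose, with sums of 5.76 to 8.87, 7.19 to 20.3 and 5.93 to 19.6 CPM. Injured tubule genes rose in 4 of 4 cases, with sums of 13.7 to 38.1, 327 to 1383 and 23.6 to 823 CPM. The library labelled RGLS4326 9 had the lowest RGLS4326 sum in each of these 5 lists.

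Kidney markers were present in all groups. Proximal tubule genes fell in 5 of 5 cases in PBS mice, with sums of 19326 to 21234 CPM in WT, 5795 to 11688 CPM with PBS and 7745 to 17753 CPM with RGLS4326. Collecting duct genes rose in 3 of 4 cases and fell in 1, with sums of 326 to 695, 909 to 2250 and 613 to 1488 CPM. The library labelled RGLS4326 9 gave the RGLS4326 ends of 17753 CPM for proximal tubule and 613 CPM for collecting duct. The RGLS4326 medians of these sums were 10839 and 1079 CPM, against 8710 and 1585 CPM with PBS. Thick limb and distal tubule genes fell in 2 of 3, none of 3 podocyte genes passed, and 1 of 4 endothelial genes fell. Neutrophil sums stayed at 2.72 CPM or less in every mouse, and erythroid sums at 7.87 CPM or less, with Hba-a1 and Hbb-bt listed at 0 throughout. None of 2 neutrophil genes tested passed, and the 1 erythroid gene tested fell in PBS mice. With RGLS4326, 2 of 5 proximal tubule genes rose, Slc22a6 by 0.35 and Slc27a2 by 0.37 (edgeR adjusted p = 0.0272 and 0.0428), and 2 of 4 collecting duct genes fell, Aqp2 by 0.56 and Aqp3 by 0.47 (edgeR adjusted p = 0.0265 and 0.0105). Slc27a2 did not pass without the library labelled RGLS4326 9 (edgeR adjusted p = 0.0768). With RGLS4326 no marker of the other lists passed the test. The part of these cell types in the levels of the cell cycle genes was not tested.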

How the data were processed

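Kidney RNA of 31 mice was sequenced from stranded poly(A) libraries. The authors trimmed reads, mapped them with STAR to GRCm38 and counted them per gene with HTSeq 0.6.1 (per the labels), and deposited raw counts for 23509 genes per mouse without normalization. The 5 summary rows that name no gene were left out of library sizes, and reads in no feature were 8.4 to 10.1% of those listed. Annotation and strand setting are not given in the sources used here.

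Groups and mouse numbers came from the labels. Low genes were dropped with filterByExpr and TMM factors computed. All mice entered 1 quasi-likelihood model (edgeR 4.0.16, R 4.3.3) with a term for each group and no covariate. P-values were adjusted by Benjamini-Hochberg and called under 0.05. Standard errors were taken as the size of the log2 fold change over the root of its F statistic. Simulated counts were used to test the procedure. DESeq2 1.42.0 was an alternative, beside other filters, scalings, covariates and mice left out. The sequence and motif searches and figures used Python 3.11.15 and matplotlib 3.10.9. Counting error limits the low genes, and p-values measure the spread between these mice.

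The members and all lists were chosen with earlier results of these data known. Values over mice are given for Mki67, Top2a, the MCM subunits, the cyclins, members called with RGLS4326 and, within each role, the members of smallest and largest p in PBS against WT. Of the other lists every CDK inhibitor and the 3 genes of smallest p in each comparison are named. Reads of the Tyms pseudogene Tyms-ps numbered 0 or 1 per mouse.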

Additional observations from a re-analysis of the deposited data

Results flagged for a closer look

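Among the 5 WT mice, Dixon's ratio, the gap to the nearest mouse over the group's range, passed its critical value of 0.71 for 1 of 42 members. This was Rrm1, at 21.1 CPM in WT mouse 5 against 17.7 to 18.6 CPM in the others. Chance alone sets apart about 1 in 20 groups.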

How the results depend on the processing

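The direction of PBS against WT held widely: 37 members rose under the other filter settings, median-of-ratios factors, the index series covariate, DESeq2 and the 2 groups alone, and 36 to 37 rose with any 1 mouse left out. Index series 2 alone gave 24 higher and 0 lower members and 6918 genes, and series 3 alone 5891 genes. Requiring a log2 fold change over 0.5 left 6442 genes. For RGLS4326 against PBS, in place of 5 members, 1 was lower with the size threshold (327 genes), 24 with total counts only (4681 genes), 9 with DESeq2 (3203 genes in place of 2402), and 0 in each index series alone and in series 2 without the library labelled RGLS4326 9 (0 genes each). The 24 and the 9 each include the 5. With any 1 mouse left out, 1 to 14 members were lower and 618 to 3999 genes passed, as did 1480 with the 2 groups only. Against WT, RGLS4326 gave 4789 genes with the size threshold, 0 higher and 0 lower members and 392 genes in series 2, which holds the library labelled RGLS4326 9 (18, 1 and 4716 without it, a choice made after seeing the data), and 18 higher members and 2801 genes in series 3. With any 1 mouse left out, 32 to 36 members were higher. The causes were not tested.

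With total counts only the median of all genes shifted to 0.38 in PBS against WT, with 9512 genes higher and 2374 lower in place of 5721 and 5560, and to −0.12 with RGLS4326 against PBS (551 higher and 4130 lower in place of 1390 and 1012) and to 0.26 in RGLS4326 against WT (8447 and 2079 in place of 4938 and 4923). Relative to these shifts the members' medians of 1.56, −0.42 and 1.09 kept their sign.

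The replicate block gave 0 members and 302 genes for RGLS4326 against PBS. Same-numbered mice of these groups had a mean correlation of −0.0496 over 12 pairs, from −0.405 to 0.421, with 4 pairs over 0.1. Of 12 PBS mice, 1 correlated best with its own number. The labels do not say that a shared number marks a pair, and these correlations cannot exclude it. Under the block, Tk1 stood at −0.02 for RGLS4326 against PBS and Ccnd1 at −0.17 for RGLS4326 against WT.

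The following estimates changed sign. For PBS against WT with total counts only, Ccnd1 was 0.33 and Tk1 0.30. In series 1 they were 0.07 and 0.01, and in series 3 0.29 and 0.25. In series 2 Ccne2 was −0.51 and Cenpe −0.04. For RGLS4326 against PBS with total counts only, Ccnd1 was −0.06, Cenpe −0.01 and Tk1 −0.08. In series 1 Birc5 was 0.01, Bub1b 0.04, Foxm1 0.03, Kif11 0.07, Kif23 0.15, Tk1 −0.04 and Tyms 0.04. In series 2 Bub1 was 0.07, Ccne1 0.03, Ccne2 0.37, Kif23 0.03, Mcm6 0.23, Mybl2 0.05 and Tk1 −0.04, and in series 3 Cenpe was −0.18. In series 2 without the library labelled RGLS4326 9, Ccne2 was −0.52 and Cenpe −0.05 for PBS against WT, Bub1 0.23, Ccne1 0.12, Ccne2 0.15, Kif11 0.06, Kif23 0.16, Mybl2 0.00, Tk1 −0.08 and Ttk 0.06 for RGLS4326 against PBS, and Ccnd1 −0.22 and Ccne2 −0.37 for RGLS4326 against WT. For RGLS4326 against WT, Tk1 was 0.22 with total counts only and 0.39 in series 3, Mybl2 was −0.03 in series 3, and in series 2 Ccnb1 was −0.10, in place of 0.81 (edgeR adjusted p = 0.0122) with all mice and 0.07 in series 2 without that library, Ccnd1 −0.19 and Ccne2 −0.13. With any 1 mouse left out, Ccnd1 ran from −0.11 to 0.06 for PBS against WT and −0.05 to 0.12 for RGLS4326 against WT, Ccne2 from −0.08 to 0.14 for RGLS4326 against WT, Tk1 from −0.12 to 0.01, −0.01 to 0.06 and −0.09 to 0.04 in the 3 comparisons, and Tyms from −0.07 to 0.00 for RGLS4326 against PBS.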
